A study of Homo sapiens with 12 samples.

Results

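The insulin-like growth factor (IGF) receptors, IGF2 and the IGF-binding proteins were followed in AC16 cells given doxorubicin, as the 10 genes IGF2, IGF1R, INSR, IGF2R, IGFBP2, IGFBP3, IGFBP4, IGFBP5, IGFBP6 and IGFBP7. They were picked by symbol from the 60607 genes of the count table, each symbol matched 1 Ensembl gene ID, and 9 of the 10 passed the filter on low counts that left 17320 genes for testing (INSR did not). AC16 is a human line made by fusing adult ventricular cells with transformed fibroblasts, and doxorubicin is an anthracycline chemotherapy drug that damages DNA through topoisomerase II. The 12 libraries formed 4 groups of 3: control cells kept in medium (DMEM), and cells exposed to 0.1 µM doxorubicin for 2, 4 or 6 days, all with wild-type genotype. The titles give 48, 96 and 112 hours and mark every library day 6, while the design text gives 6 days for the longest exposure, the name used here. The labels do not say whether exposure lasted until harvest. Below, later means a longer exposure, since the titles give every library the same day.

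IGF1 and IGF2 signal through IGF1R, a receptor tyrosine kinase that acts through IRS and SHC adaptors on PI3K, AKT and mTOR to drive growth and survival, also in heart muscle cells. INSR, the insulin receptor, is the closest relative of IGF1R and can pair with it. IGF2R has no kinase: it removes IGF2 from the cell surface and carries enzymes tagged with mannose 6-phosphate to lysosomes. The secreted IGF-binding proteins hold IGFs away from the receptors, and proteases such as PAPPA free them again.

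Total counts were 14835743 to 21226441 per library. The mitochondrial share of counts was 5.51 to 8.34%, and control replicate 2 and 2-day replicate 3 stood apart from the rest of their groups in it. The labels do not state whether replicates were cultured separately, and p-values therefore reflect the spread among the sequenced libraries alone, which may be technical. The labelled cell type, cardiomyocyte, had little backing in its markers. Only 3 of 10 cardiomyocyte markers passed the filter, MYL2 had 0 counts in every library, and their summed level was 8.54 to 20.1 CPM (counts per 1000000 of the scaled library total), while all 10 fibroblast markers were tested and summed to 7761 to 12050 CPM. The summed cardiomyocyte level was 8.54 to 14.8 CPM in controls and 11.4 to 15.4 CPM after 2 days. It was 12.0 to 16.7 CPM after 4 days and 16.9 to 20.1 CPM after 6 days. The cardiomyocyte marker with the most counts was TTN, with 548 over the 3 controls. Of the 3 tested, ACTN2 was called higher at each exposure, TTN higher at 6 days, and NPPA lower at 2 and 6 days. The summed fibroblast level was 7761 to 8472 CPM in controls, 11710 to 12050 CPM after 2 days, 10110 to 10630 CPM after 4 days and 8680 to 9127 CPM after 6 days. Its members parted: 7 were called higher and 1 lower at 2 days, 3 and 4 at 4 days, and 3 and 5 at 6 days, with LUM lower at each exposure and VIM higher. Of 5 smooth muscle markers 4 were tested, and the list summed to 168 to 187 CPM in controls, 366 to 394 after 2 days, 303 to 323 after 4 days and 311 to 319 after 6 days, with ACTA2 higher at each exposure and CNN1 lower at 4 and 6 days. The sum of 4 blood markers was 3.63 to 5.62 CPM in controls and 4.69 to 5.89 after 2 days. After 4 days it was 9.54 to 12.4 and after 6 days 10.5 to 12.6. Of its 2 tested members, CD68 was called higher at 4 and 6 days and PTPRC at no exposure. The sum of 4 endothelial markers was 4.43 to 6.63 CPM in controls and 4.44 to 6.57 after 2 days. Later it was lower, 3.34 to 3.66 after 4 days and 3.47 to 4.03 after 6 days. Its members parted at 4 and 6 days, with PECAM1 called higher and VWF and KDR lower. The part of these markers in the results below was not tested.

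After 2 days of doxorubicin, genes of most IGF-binding proteins and of IGF1R were higher, and none of the 9 tested members was called lower. INSR, which is not among the 9, had 3 counts after 2 days and 32 in controls, and was called lower without the filter. A gene was called where its Benjamini-Hochberg adjusted p in edgeR's quasi-likelihood test, over all 17320 genes, was under 0.05. At that threshold 6 members were higher at 2 days (IGFBP2, IGFBP3, IGFBP4, IGFBP6, IGFBP7 and IGF1R), beside 23.8% of all genes called higher, 23.4% called lower and 47.2% called in either direction. At 4 days 5 were higher and 1 lower, beside 18.8% of all genes called higher, 17.7% lower and 36.5% in either direction. At 6 days 5 were higher and 2 lower, beside 22% higher, 21.7% lower and 43.7% in either direction. Treated and control libraries did not overlap for 6, 6 and 8 members at 2, 4 and 6 days, beside 52.2%, 44.6% and 50.9% of all genes. The median log2 fold change of the 9 members was 1.05, 0.65 and 0.86 at 2, 4 and 6 days, where that of all genes was -0.01, 0.00 and -0.01. These 3 comparisons share the same control libraries. In bulk RNA, fewer cells of a type and less RNA per cell cannot be told apart. Across the 4 groups all 9 tested members differed (adjusted p = 5.19e-14 for IGFBP3, the smallest, to 0.0281 for IGF2R in edgeR's test of 3 coefficients), beside 63.4% of all genes.

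Longer exposures were also set against shorter ones. At 4 days 1 member was higher than at 2 days and 5 were lower, beside 16.3% of all genes called higher, 18.5% lower and 34.8% in either direction. At 6 days 1 was higher and 6 were lower than at 2 days, beside 19.8%, 23% and 42.8%. Fewer members separated 6 from 4 days, with 1 higher and 2 lower, beside 3.05%, 3.73% and 6.78%. The libraries of the compared exposures did not overlap for 5 members at 4 against 2 days, 7 at 6 against 2 days and 6 at 6 against 4 days, beside 45.9%, 52.8% and 27.6% of all genes.

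**Figure D1:**
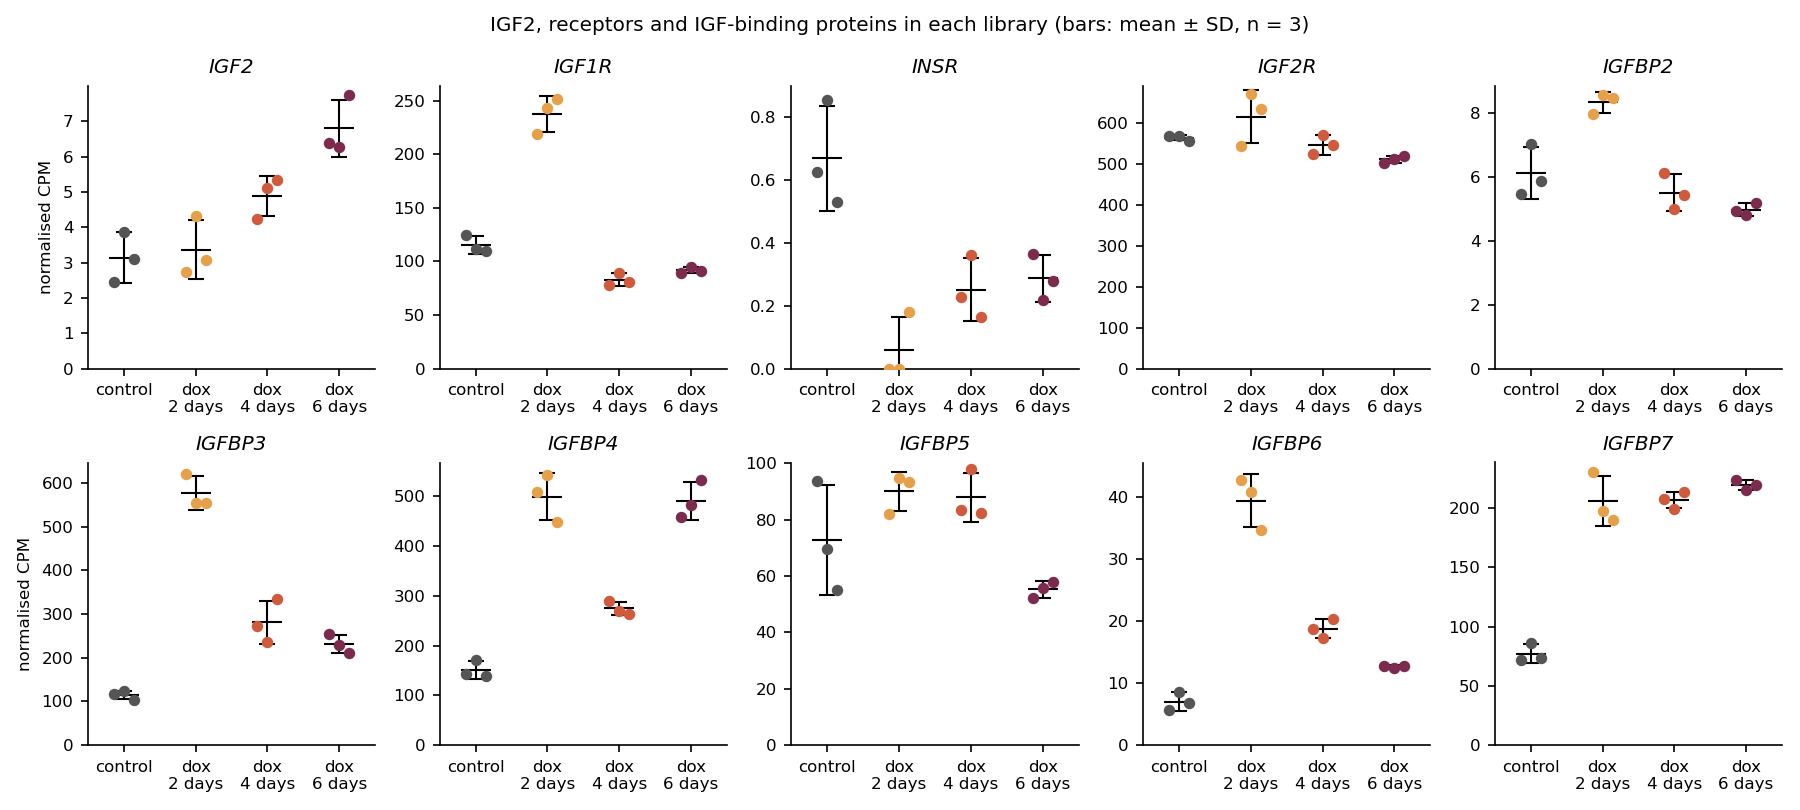
Normalised CPM (y axes, each from 0, of different range) of the 10 genes in each of the 12 libraries (points), by group (x axes), with mean ± SD of 3 libraries. IGFBP3, IGFBP6 and IGF1R have their highest points after 2 days (up to 621, 42.7 and 251 CPM), IGFBP4 is high after 2 and 6 days, IGFBP7 is high at all 3 exposures, and INSR stays below 1 CPM.

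Of the 5 genes that were more than 2-fold higher after 2 days (IGFBP3, IGFBP4, IGFBP6, IGFBP7 and IGF1R), the 250 bases before the RefSeq start (GRCh38.p14) are printed for 3, to show the sequence before genes that share this 2-day rise, by which they were picked. At 4 and 6 days they parted, with IGF1R below the control and IGFBP3 and IGFBP4 above it. The table had windows for 8 of the 10 members and none for IGFBP7 or IGF2, and the window of IGFBP6 is left out because 231 of its bases lie in an exon of the gene in GENCODE release 29. The IGFBP3 window lies inside the span of its gene in that release, with 2 of its bases in an exon. Sequences run 5′ to 3′ on the gene's strand, and capitals mark TATAAA, the core of a TATA box, or GGGCGG, the core of a GC box, searched on both strands.
IGFBP3 (chr7:45921273-45921522, minus strand): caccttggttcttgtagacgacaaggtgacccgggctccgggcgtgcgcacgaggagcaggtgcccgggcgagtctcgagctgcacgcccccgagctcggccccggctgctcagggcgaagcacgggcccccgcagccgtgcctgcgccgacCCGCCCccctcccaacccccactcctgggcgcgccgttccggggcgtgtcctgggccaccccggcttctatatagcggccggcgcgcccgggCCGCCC
IGFBP4 (chr17:40443200-40443449, plus strand): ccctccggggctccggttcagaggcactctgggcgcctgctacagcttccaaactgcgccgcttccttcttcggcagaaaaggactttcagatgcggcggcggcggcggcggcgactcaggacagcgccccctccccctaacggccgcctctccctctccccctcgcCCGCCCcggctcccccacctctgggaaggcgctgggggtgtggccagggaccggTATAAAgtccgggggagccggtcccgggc
IGF1R (chr15:98648289-98648538, plus strand): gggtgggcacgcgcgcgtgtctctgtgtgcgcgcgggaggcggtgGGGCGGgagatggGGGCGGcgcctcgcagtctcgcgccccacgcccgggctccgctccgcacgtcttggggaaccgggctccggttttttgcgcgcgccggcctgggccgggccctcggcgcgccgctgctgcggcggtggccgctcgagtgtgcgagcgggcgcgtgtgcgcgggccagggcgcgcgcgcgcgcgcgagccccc
TATAAA stood in 1 of these 3 windows, that of IGFBP4, with its first base 29 bases before the start, and in 10.8% of all 34788 windows of this length. GGGCGG stood in all 3 and in 42.6% of all windows. IGFBP3 and IGF1R held 2 matches each and IGFBP4 held 1. The 10-base half-site of p53 was found in none of these 3 windows and in 5.6% of all windows. The TATA box was searched as the exact letters TATAAA, so the near form tatata in the IGFBP3 window was not counted. A match is a description of letters only.

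IGF2, a ligand of IGF1R and IGF2R, was the only IGF ligand gene with appreciable counts. IGF1 had 0, 1, 0 and 3 counts over the 3 libraries of the control, 2-day, 4-day and 6-day groups, and INS, the insulin gene, had 0 in every library. IGF2 (chromosome 11, 2129112 to 2149603, minus strand, GRCh38) stood at 2.44, 3.87 and 3.10 CPM in control libraries, 2.72, 4.31 and 3.06 after 2 days, 4.24, 5.10 and 5.33 after 4 days, and 6.40, 6.27 and 7.73 after 6 days. The 2-day libraries overlapped the controls, and every 4-day and 6-day library lay above every control. The rise at 6 days was 2.18-fold (log2 fold change 1.13 ± 0.20, SE, adjusted p = 6.07e-05 by edgeR), and 6 days was also above 2 days (1.03 ± 0.20, adjusted p = 0.00015). The 6-day libraries lay above the 4-day libraries too, but that difference was not called (0.48 ± 0.19, adjusted p = 0.128). The rise at 4 days (0.65 ± 0.21, adjusted p = 0.0165) was no longer called without control replicate 1 (adjusted p = 0.109) or 4-day replicate 3 (0.0626). These levels rest on 43 to 167 counts per library. IGF2 shares exons with INS-IGF2, another protein-coding gene and a non-coding gene, all on its strand and each with 0 counts over the 12 libraries. It also shares exons with an antisense gene, which had 96. No read was thus counted for these same-strand genes, and reads in exons shared with them may have been counted for no gene. Reads in exons shared with the antisense gene may have been counted for neither gene or for both. The counting mode is not given in the sources used here.

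IGF1R, the signalling receptor (chromosome 15, 98648539 to 98964530, plus strand), was higher than the control after 2 days and lower after 4 and 6. It had 125, 111 and 109 CPM in control libraries, 219, 243 and 251 after 2 days, 78.1, 89.6 and 80.3 after 4 days, and 89.2, 94.9 and 90.8 after 6 days. No treated library fell within the control range: all 2-day libraries were above it and all 4-day and 6-day libraries below it. Against the control, IGF1R rose 2.06-fold at 2 days (log2 fold change 1.05 ± 0.08, adjusted p = 1.22e-10 by edgeR) and fell at 4 days (-0.48 ± 0.08, adjusted p = 5.65e-05) and at 6 days (-0.33 ± 0.08, adjusted p = 0.00208). The 4-day level was 2.88-fold lower than the 2-day level (adjusted p = 8.69e-13), while 6 days and 4 days did not differ past the threshold (log2 difference 0.15 ± 0.08, adjusted p = 0.311).

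INSR (chromosome 19, 7112255 to 7294034, minus strand) was close to the detection limit. It had 11, 13 and 8 counts in control libraries, 0, 0 and 3 after 2 days, 4, 6 and 3 after 4 days, and 6, 4 and 6 after 6 days, so every treated library had fewer counts than any control. The normalised level after 2 days was 0.088 times the control level (95% exact conditional interval 0.0172 to 0.281, counting error only), and all 3 counts were in 2-day replicate 3. It was 0.371 times the control at 4 days (0.179 to 0.726) and 0.426 times at 6 days (0.218 to 0.799). Without the filter, edgeR called the fall at 2 days (adjusted p = 0.000506) but not those at 4 days (0.159) or 6 days (0.216). Per kb of exon, IGF1R had 8.25 ± 0.614 CPM and INSR 0.0640 ± 0.0160 CPM in controls (SD, n = 3).

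IGF2R, the clearance receptor (chromosome 6, 159969099 to 160113507, plus strand), had the highest mean CPM of the members in every group. It stood at 567, 569 and 557 CPM in control libraries, 543, 671 and 634 after 2 days, 523, 569.8 and 546 after 4 days, and 502, 512 and 519.6 after 6 days. No exposure differed from the control past the threshold (log2 differences 0.13 ± 0.08, -0.05 ± 0.08 and -0.14 ± 0.08 at 2, 4 and 6 days, adjusted p = 0.188, 0.684 and 0.143 by edgeR). Without 2-day replicate 1 the 2-day difference was called (0.22, adjusted p = 0.0269). The 6-day level was below the 2-day level (-0.27 ± 0.08, adjusted p = 0.00696), a call that ended with scaling by library totals alone (-0.11, adjusted p = 0.261) and without 2-day replicate 2 (-0.21, adjusted p = 0.0551).

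IGFBP3, whose protein carries most IGF in blood (chromosome 7, 45912245 to 45921874, minus strand), and IGFBP6, a binding protein that prefers IGF2 (chromosome 12, 53097436 to 53102345, plus strand), had the same order of groups: lowest in control, highest after 2 days, and in between later. IGFBP3 had 116, 123 and 104 CPM in control libraries, 621, 554 and 554 after 2 days, 273, 236 and 333 after 4 days, and 254, 229 and 211 after 6 days. All 9 treated libraries lay above the controls, and the 2-day libraries lay above all others. IGFBP3 was 5.04-fold higher than the control at 2 days (log2 fold change 2.33 ± 0.11, adjusted p = 1.18e-14 by edgeR), 2.46-fold at 4 days (adjusted p = 5.99e-10) and 2.02-fold at 6 days (adjusted p = 2.39e-08). At 4 days it was below 2 days (-1.04 ± 0.10, adjusted p = 2.9e-08), and 6 days against 4 days was not called (-0.28 ± 0.10, adjusted p = 0.1). That last difference was called without 4-day replicate 2 (adjusted p = 0.0251) and without the low-count filter (0.0414).

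IGFBP6 had 5.62, 8.60 and 6.74 CPM in control libraries, 42.7, 40.8 and 34.6 after 2 days, 18.6, 17.2 and 20.3 after 4 days, and 12.7, 12.4 and 12.8 after 6 days. The 4 groups did not overlap. IGFBP6 was 5.66-fold higher than the control at 2 days (2.50 ± 0.13, adjusted p = 9.33e-14 by edgeR), 2.69-fold at 4 days and 1.82-fold at 6 days (0.86 ± 0.14, adjusted p = 1.93e-05). Its level was lower with each longer exposure (adjusted p = 1.16e-07 for 4 against 2 days and 0.00646 for 6 against 4 days, edgeR).

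Among the 7 members with at least 10 CPM in some group, these 2 had the widest range of group means, and INSR, IGFBP2 and IGF2 were below that level. The genes with the most similar profiles to IGFBP3 over the 12 libraries, among 9582 with an ordinary symbol and at least 10 CPM in some group, were BHLHE40 (Pearson r = 0.99 of log2 CPM), BLCAP (0.988) and TRIM3 (0.988). Those most like IGFBP6 were EPS8L2 (0.989), CALR (0.982) and NFKB2 (0.981). The libraries form 4 groups, so the correlations describe shared group levels.

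IGFBP4 (chromosome 17, 40443461 to 40457731, plus strand), whose protein inhibits IGF action until PAPPA cuts it, was above the control at each exposure. It was lower after 4 days than after 2 or 6 days. It had 143, 171 and 139 CPM in control libraries, 508, 543 and 449 after 2 days, 289.6, 270.3 and 264 after 4 days, and 458, 483 and 532 after 6 days. All treated libraries were above the controls, and the 2-day and 6-day libraries overlapped each other but not the 4-day libraries. The gene was 3.31-fold higher than the control at 2 days (1.73 ± 0.09, adjusted p = 9.69e-14 by edgeR), 1.82-fold at 4 days (0.86 ± 0.09, adjusted p = 3.63e-08) and 3.25-fold at 6 days (1.70 ± 0.09, adjusted p = 1.27e-13). At 6 days IGFBP4 was also higher than at 4 days (0.84 ± 0.09, adjusted p = 2.2e-06), the 1 member called higher between these exposures, where IGFBP5 and IGFBP6 were called lower.

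IGFBP7 (chromosome 4, 57030773 to 57110385, minus strand) encodes a matrix-associated relative that binds IGFs weakly and is secreted by senescent cells. Its levels at the 3 exposures were alike and above the control. It had 71.5, 86.3 and 73.3 CPM in control libraries, 230.5, 197 and 190.3 after 2 days, 208, 199.6 and 213 after 4 days, and 224, 215 and 219.9 after 6 days. The lowest treated library was more than 2-fold above the highest control. The rise was 2.68-fold at 2 days, 2.69-fold at 4 days and 2.85-fold at 6 days (log2 fold changes 1.42, 1.43 and 1.51, each ± 0.09, adjusted p = 1.29e-12, 1.86e-12 and 4.28e-13 by edgeR). No pair of exposures differed past the threshold (log2 differences 0.01 to 0.09, each ± 0.08), although 6 against 2 days was called with library totals alone (0.25, adjusted p = 0.0172). IGFBP7 overlaps POLR2B on the other strand over 396 bases, and whether the counting used strand is not given in the sources used here. POLR2B itself was not called at any exposure (log2 fold changes -0.112, -0.0454 and -0.108).

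**Figure D2:**
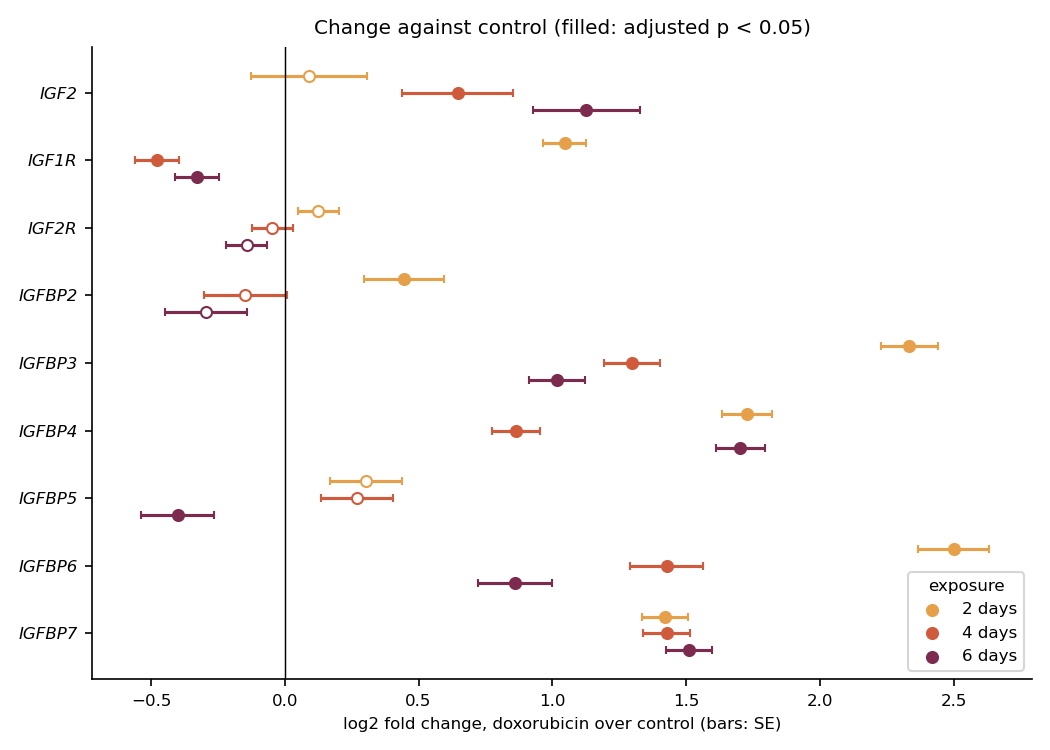
Log2 fold change over control (x axis) of the 9 tested members (y axis) after 2, 4 and 6 days of doxorubicin, with SE bars; filled points passed an adjusted p of 0.05. IGFBP3, IGFBP4, IGFBP6 and IGFBP7 lie right of 0 at each exposure, while IGF1R lies at 1.05 after 2 days and at -0.48 and -0.33 after 4 and 6 days.

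IGFBP2 and IGFBP5 lie 7.7 kb apart on chromosome 2, end to end on opposite strands (216632828 to 216664436 and 216672105 to 216695525), and both encode binding proteins that also attach to the cell surface or matrix. IGFBP2 stood at 5.45, 7.03 and 5.88 CPM in control libraries, 7.96, 8.56 and 8.47 after 2 days, 6.11, 4.98 and 5.43 after 4 days, and 4.93, 4.80 and 5.19 after 6 days. Only the 2-day libraries lay above all controls, and the 6-day libraries lay below them. The rise at 2 days was 1.36-fold (0.45 ± 0.15, adjusted p = 0.0157 by edgeR), and it was not called without control replicate 1 (adjusted p = 0.0894) or 3 (0.0528) or with library totals alone (0.0748). The later differences from the control were not called (-0.15 ± 0.15 and -0.29 ± 0.15), and both later levels were below the 2-day level (adjusted p = 0.0028 and 0.000277).

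IGFBP5 had 93.9, 69.5 and 55.2 CPM in control libraries, 82.2, 94.9 and 93.3 after 2 days, 83.4, 98.0 and 82.6 after 4 days, and 52.1, 55.7 and 57.9 after 6 days. The controls spread over almost the whole range of the other groups. The 2-day and 4-day differences were not called (0.30 ± 0.14 and 0.27 ± 0.14, adjusted p = 0.0743 and 0.133 by edgeR), but both were without control replicate 1, the highest control (0.53 and 0.50, adjusted p = 0.000271 and 0.000828), and without the low-count filter (adjusted p = 0.00446 and 0.0272), and the 2-day one also without 2-day replicate 1 (0.0491). The fall at 6 days (-0.40 ± 0.14, adjusted p = 0.0241) ended without that control (-0.18, adjusted p = 0.202), without control replicate 2 (0.0734) and without 6-day replicate 1 (0.0783) or 2 (0.0586). IGFBP5 at 6 days was below both 4 days (-0.67 ± 0.14, adjusted p = 0.00564) and 2 days (-0.70 ± 0.14, adjusted p = 0.0004).

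Levels of different genes were set side by side per kb of exon. In controls IGFBP4 had 68.6 ± 8.06 CPM per kb, IGFBP7 39.9 ± 4.18, IGF2R 31.6 ± 0.348, IGFBP3 25 ± 2.11, IGFBP5 11.3 ± 3.04, IGFBP6 5.19 ± 1.12, IGFBP2 1.28 ± 0.171 and IGF2 0.450 ± 0.103 (SD, n = 3). The summed level of the 6 binding-protein genes was 151 ± 15.2 CPM per kb in controls, 505 ± 35.0 after 2 days, 322 ± 13.5 after 4 days and 407 ± 13.1 after 6 days, and no treated library overlapped the controls. IGFBP4 made up 45.3 ± 1.13% of this sum in controls, 45.0 ± 2.41% after 2 days, 38.8 ± 2.31% after 4 days and 54.8 ± 2.55% after 6 days. IGFBP3 made up 16.5 ± 0.611%, 25 ± 1.38%, 19 ± 2.63% and 12.5 ± 1.5% in the same order. IGFBP7 made up 26.4 ± 1.11%, 21.1 ± 1.33%, 33.3 ± 0.379% and 28 ± 1.05%. With the length of the longest transcript instead, the share of IGFBP3 after 2 days was 36.2% and that of IGFBP4 34.4%, so their order at 2 days depends on the length used. So does that of IGFBP4 and IGFBP7 at 4 days, where their shares were 38.8% and 33.3% by exon length and 29.97% and 34.8% by the longest transcript. That length also put IGFBP3 above IGF2R in controls, at 47.4 and 40.2 CPM per kb.

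**Figure D3:**
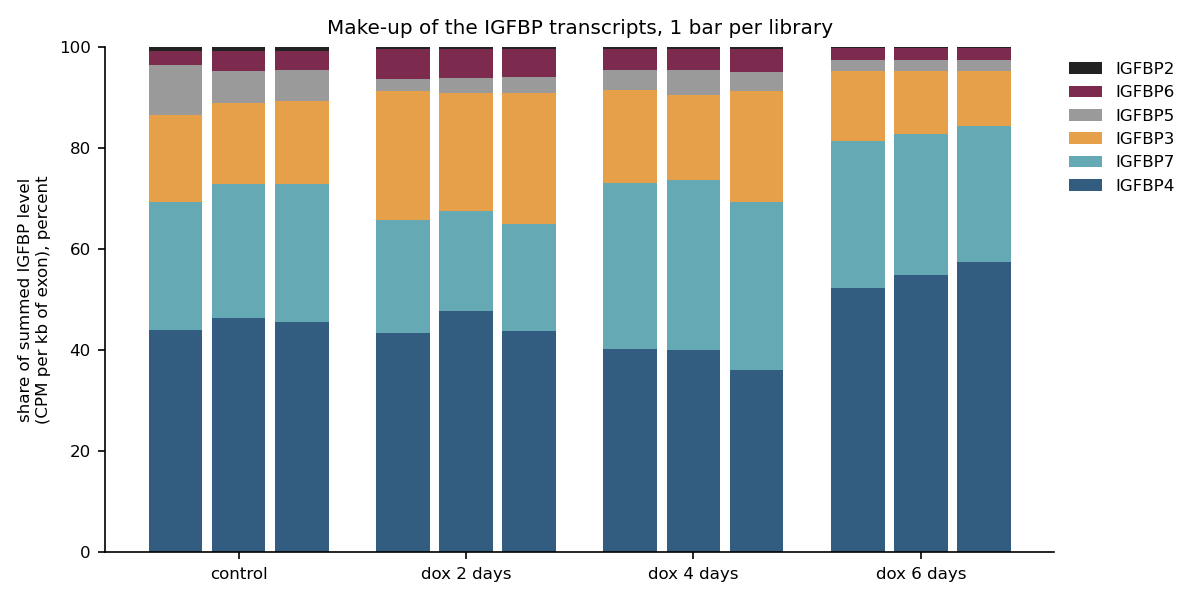
Share of each binding-protein gene in their summed level per kb of exon (y axis, percent) in each library (bars), grouped by exposure (x axis). The IGFBP4 share is largest after 6 days (54.8% on average) and the IGFBP3 share after 2 days (25%).

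The proteases and regulators around the binding proteins were read from a list of 18 genes, of which 14 were tested. After 2 days 4 rose and 2 fell, at 4 days 5 rose and 3 fell, and at 6 days 6 rose and 3 fell, with median log2 fold changes of 0.04, 0.18 and 0.15. Of all genes, 23.8%, 18.8% and 22% were called higher and 23.4%, 17.7% and 21.7% lower, where the list had 28.6%, 35.7% and 42.9% higher and 14.3%, 21.4% and 21.4% lower. PAPPA, the protease that cuts IGFBP4, had 48.4, 38.5 and 45.1 CPM in control libraries, 173, 158 and 189 after 2 days, 166, 181 and 168 after 4 days, and 256, 282 and 291 after 6 days. All treated libraries were above the controls and the 6-day libraries above all others. Its log2 fold changes were 1.98 ± 0.09, 1.96 ± 0.09 and 2.65 ± 0.09 (adjusted p = 8.01e-15, 1.79e-14 and 4.35e-17 by edgeR). STC1, whose protein stanniocalcin-1 inhibits PAPPA, had 32.6, 33.1 and 26.3 CPM in control libraries, 52.7, 48.9 and 54.7 after 2 days, 68.8, 72.7 and 110.1 after 4 days, and 119, 124 and 122 after 6 days. STC1 was higher at each exposure (log2 fold changes 0.76 ± 0.14, 1.45 ± 0.14 and 1.98 ± 0.14, adjusted p = 0.000168, 1.05e-07 and 9.11e-10), and PAPPA and IGFBP4 were both higher at 6 days than at 4 days (PAPPA by 0.68 ± 0.09, adjusted p = 1.94e-05). STC2, the other stanniocalcin and also a PAPPA inhibitor, was added after its values were seen. It averaged 575 ± 37.5 CPM in controls, 576 ± 19.6 after 2 days, 462 ± 32.4 after 4 days and 474 ± 39.5 after 6 days. STC2 was not called at 2 days (0.00 ± 0.08, adjusted p = 0.988) and fell at 4 days (-0.32 ± 0.08, adjusted p = 0.00292) and 6 days (-0.28 ± 0.08, adjusted p = 0.00638, and 0.0521 without 6-day replicate 1).

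H19, the imprinted non-coding gene beside IGF2, had 4 counts over the 3 controls, 476 after 2 days, 250 after 4 days and 42 after 6 days. Its level was 7.86, 13.8 and 7.15 CPM after 2 days, against 0.0568, 0.197 and 0 CPM in controls (log2 fold change 6.72 ± 0.54, adjusted p = 3.6e-09 by edgeR; 7.98 without control replicate 2). IGF2 had its highest levels after 6 days and H19 after 2 days. ADAM12, another protease of binding proteins, rose at 2 days (0.68 ± 0.08, adjusted p = 1.56e-07) and was not called at 4 days (0.14 ± 0.08) or 6 days (0.00 ± 0.08). IGF2BP2, which encodes a protein that binds IGF2 messenger RNA, was lower at 4 days (-0.43 ± 0.08) and at 6 days (-0.71 ± 0.08, adjusted p = 2.15e-07). It was also called lower at 2 days (-0.22 ± 0.08, adjusted p = 0.0334), a call that ended without control replicate 2 (0.13) or 2-day replicate 1 (0.155) or 3 (0.128), without the filter (0.0746) and with the compared groups alone (0.0847). IGFBP1, the neighbour of IGFBP3 at a distance of 18.6 kb, was near 1 CPM: 0.378 ± 0.162 CPM at 4 days, against 1.04 ± 0.411 CPM in controls (-1.45 ± 0.45, adjusted p = 0.0133, and 0.12 without control replicate 1 or 0.0751 without 4-day replicate 1). Its fall at 6 days (-1.17 ± 0.43, adjusted p = 0.0309) ended without control replicate 1 (0.214), control replicate 2 (0.0507) or 6-day replicate 2 (0.0522) or 3 (0.139), without the filter (0.0644) and in DESeq2 (0.0531).

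**Figure D4:**
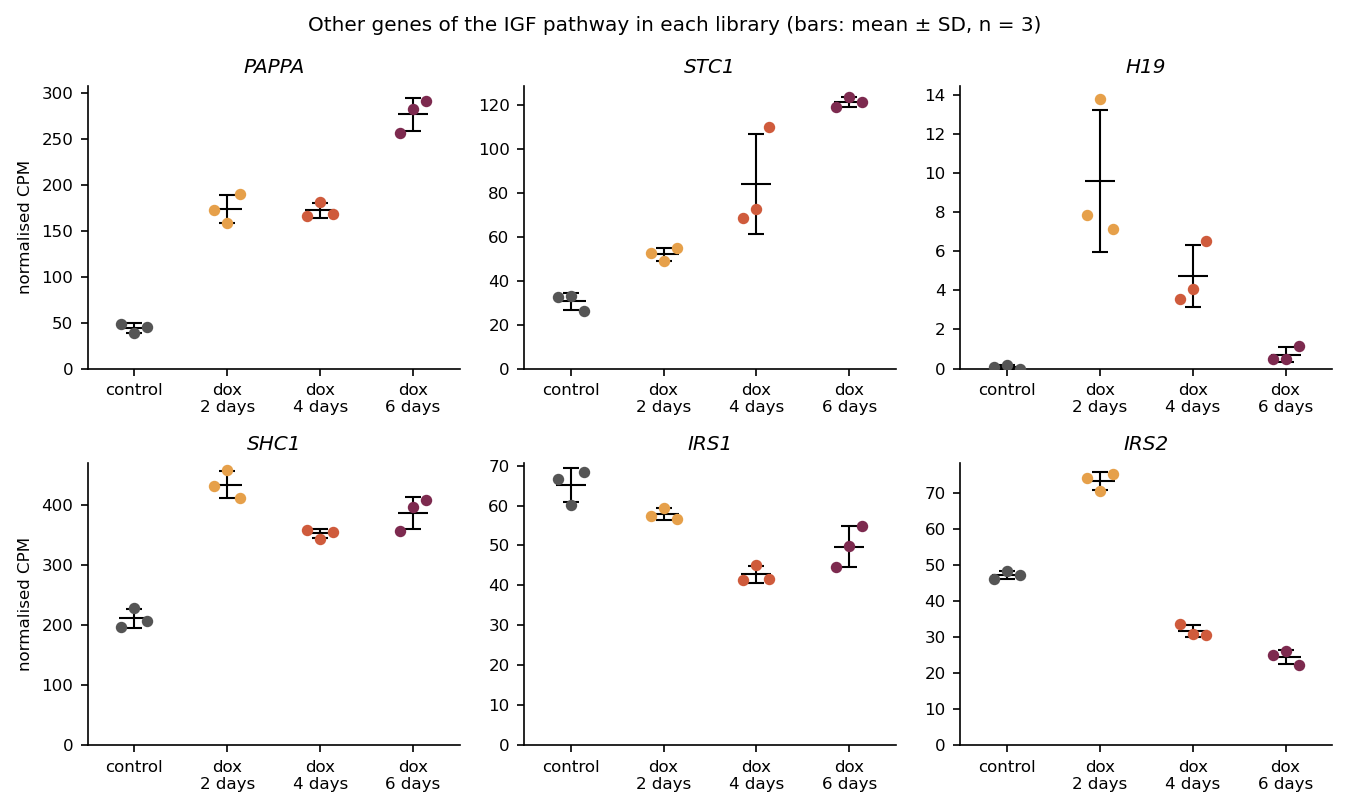
Normalised CPM (y axes, each from 0, of different range) of 6 genes around the receptors in each library (points) by group (x axes), with mean ± SD of 3 libraries. PAPPA and STC1 are highest after 6 days (276 and 121 CPM on average), H19 is highest after 2 days, and IRS2 is above the control after 2 days and below it after 4 and 6 days.

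Of 14 receptor substrates and adaptors 13 were tested. After 2 days 7 rose and 2 fell, whereas at 4 days 3 rose and 6 fell and at 6 days 3 rose and 5 fell, with medians of 0.34, -0.26 and -0.04 on the log2 scale. That is 53.8%, 23.1% and 23.1% higher and 15.4%, 46.2% and 38.5% lower, beside 23.8%, 18.8% and 22% higher and 23.4%, 17.7% and 21.7% lower among all genes. IRS2, which couples both receptors to PI3K, had 46.0, 48.5 and 47.4 CPM in control libraries, 74.1, 70.5 and 75.4 after 2 days, 33.6, 30.9 and 30.7 after 4 days, and 25.04, 26.05 and 22.2 after 6 days. Like IGF1R, it was above the control range in every 2-day library and below it in every later one (log2 fold changes 0.63 ± 0.08, -0.57 ± 0.09 and -0.95 ± 0.09, adjusted p = 1.05e-06, 1.11e-05 and 3.21e-09 by edgeR). IRS1, its relative, was not called at 2 days (-0.17 ± 0.09, adjusted p = 0.114, called without control replicate 2 with 0.0362 and with library totals alone with 0.00679) and fell at 4 days (-0.61 ± 0.09) and 6 days (-0.39 ± 0.09). SHC1, an adaptor that leads to RAS, rose at all 3 exposures (1.04 ± 0.08, 0.74 ± 0.08 and 0.88 ± 0.08). CAV1, the caveolin that binds these receptors at the membrane, reached 798 ± 59.1 CPM after 2 days, against 380.2 ± 39.4 CPM in controls (1.07 ± 0.09, adjusted p = 2.35e-10). CAV1 was also higher at 4 days (0.40 ± 0.09), while 6 days was not called (0.17 ± 0.09, adjusted p = 0.114, and 0.0335 without control replicate 3). The phosphatase gene PTPRF was not called at 2 days (-0.05 ± 0.08) and fell at 4 days (-0.33 ± 0.08, adjusted p = 0.00337) and 6 days (-0.58 ± 0.08, adjusted p = 4.09e-06).

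All 35 genes of the PI3K, AKT and mTOR list were tested. They moved in both directions: 11 rose and 12 fell after 2 days, 6 and 9 at 4 days, and 7 and 11 at 6 days, with medians of -0.03, -0.06 and -0.03. That is 31.4%, 17.1% and 20% higher and 34.3%, 25.7% and 31.4% lower, beside 23.8%, 18.8% and 22% higher and 23.4%, 17.7% and 21.7% lower among all genes. SESN1, a p53 target that restrains mTOR complex 1, rose at each exposure (2.65 ± 0.12, 2.02 ± 0.12 and 2.23 ± 0.12, adjusted p = 6.64e-15, 2.32e-12 and 2.05e-13 by edgeR). TRIB3, an inhibitor of AKT, fell at each (-1.77 ± 0.10, -2.44 ± 0.11 and -2.32 ± 0.11). DEPTOR, an mTOR-binding inhibitor, had 27.5 ± 2.49 CPM after 2 days, against 13 ± 1.92 CPM in controls (1.08 ± 0.13), and 4.93 ± 0.983 CPM after 4 days (-1.40 ± 0.15, adjusted p = 5.09e-08), and it was lower at 6 days as well (-1.14 ± 0.15). DDIT4, another mTOR inhibitor, fell at each exposure (-0.79 ± 0.10, -0.81 ± 0.10 and -1.03 ± 0.10, adjusted p = 3.87e-07, 4.36e-07 and 5.78e-09). Over the 62 tested genes of all 3 lists, 22 rose and 16 fell after 2 days, 14 and 18 at 4 days, and 16 and 19 at 6 days. These are 35.5%, 22.6% and 25.8% higher and 25.8%, 29% and 30.6% lower, to be read against the same shares of all genes.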

How the data were processed

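RNA of AC16 cells was sequenced in 12 libraries. The authors deposited whole-number counts for each gene and library, without normalization. The submitters' processing notes name fastp 0.23.2, Trimmomatic 0.38, STAR 2.7.8, HTSeq 0.13.5 and the build GRCh38.p13, with no roles, strand setting or counting mode. Symbols were matched by Ensembl ID, and positions and exon lengths come from GENCODE release 29 (GRCh38). The members, lists and named-gene rule were chosen with earlier results of these data known.

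Counts were tested with edgeR 4.0.16 in R 4.3.3: filterByExpr (minimum count 10, minimum total 15), TMM scaling, glmQLFit with robust settings on all 12 libraries with a mean per group and no block, and glmQLFTest, adjusted over 17320 genes. SE is the absolute log2 fold change divided by the square root of F. Pathway genes named are those with the smallest p in their list, up to 3 for each comparison with the control, above 5 CPM in the higher group, plus IGF1, IGFBP1, PAPPA, IRS1 and IRS2; STC2 was added after its values were seen. Alternatives were scaling by library totals or by size factors of the DESeq2 type, no filter, 1 CPM in 3 libraries, DESeq2 1.42.0, a replicate block, the compared groups alone, each library left out, another gene length, and, added after the data were seen, leaving out 2 libraries together. The procedure was run on simulated data in which far fewer genes changed than were called here. Its error rate under changes this wide was not tested. Replicates differed by more than sampling noise in every group.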

Additional observations from a re-analysis of the deposited data

Results flagged for a closer look

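The effect against the control differed between exposures, by the test of the difference itself, for 8 of the 9 tested members. The share of all genes called in at least 1 pair of exposures was not counted. The 8 of 9 therefore cannot be read as a trait of these genes. Each value is a log2 difference between the longer and the shorter exposure with an adjusted p under 0.05 in edgeR, and the control cancels out of it. At 4 against 2 days the differences were -1.52 for IGF1R, -1.07 for IGFBP6, -1.04 for IGFBP3, -0.86 for IGFBP4, -0.59 for IGFBP2 and 0.56 for IGF2, beside 34.8% of all genes called. The IGF2 libraries of these exposures overlapped, and its call ended with several libraries left out. At 6 against 4 days they were 0.84 for IGFBP4, -0.67 for IGFBP5 and -0.57 for IGFBP6, beside 6.78% of all genes called. At 6 against 2 days they were -1.64 for IGFBP6, -1.38 for IGF1R, -1.32 for IGFBP3, -0.74 for IGFBP2, -0.70 for IGFBP5, -0.27 for IGF2R and 1.03 for IGF2, beside 42.8% of all genes called. IGF1R was called in opposite directions against the control, higher at 2 days and lower at 4 and 6 days. Without the low-count filter IGFBP5 was too, higher at 2 days (adjusted p = 0.00446) and 4 days (0.0272) and lower at 6 days. Groups of 3 libraries were too small for a test of single outlying libraries.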

How the results depend on the processing

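Of 19 calls of a member against the control, 16 kept their direction and stayed past the threshold in all 20 alternatives; the others were IGFBP2 at 2 days, IGF2 at 4 days and IGFBP5 at 6 days, whose values stand in the report. IGF2 at 4 against 2 days was not called without the filter (adjusted p = 0.0566), nor with several libraries left out (up to 0.19), and IGFBP7 at 6 against 2 days was called with library totals alone (0.25, adjusted p = 0.0172). Library totals moved the median of all genes to -0.136 at 2 days against the control. The number of members called moved by no more than 1.5 times in any comparison and setting, including the 12 fits without a library. At 2 days against the control it ranged from 6 to 9 in those 12 fits, against 6 with all libraries. The 9 includes INSR, which was not among the 9 members tested with all libraries. Members that differed among the 4 groups numbered 9 or 10 in them, where 10 includes INSR.

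Differences near 0 changed sign, none of them called. With library totals alone IGF2 at 2 days against the control was -0.032, IGFBP5 at 4 against 2 days 0.053, IGFBP4 at 6 against 2 days 0.13 and STC2 at 2 days -0.12. STC2 at 2 days was -0.0053 with a minimum of 1 CPM in 3 libraries. IGFBP7 at 4 against 2 days was -0.0075 without the filter and -0.049 without both libraries apart in mitochondrial share, where ADAM12 at 6 days was -0.073. With 1 library left out, IGF2 at 2 days against the control ranged from -0.10 to 0.26, IGFBP7 at 4 against 2 days from -0.0496 to 0.0864, IGFBP4 at 6 against 2 days from -0.099 to 0.0345, IGFBP5 at 4 against 2 days from -0.125 to 0.016 and IGFBP1 at 2 days against the control from -0.51 to 0.0741. In the same fits PTPRF at 2 days ranged from -0.112 to 0.0343, STC2 at 2 days from -0.0504 to 0.0422 and ADAM12 at 6 days from -0.0717 to 0.0803. IGF2BP2 at 2 days, called in the report, had an adjusted p of 0.319 without both libraries apart in mitochondrial share. Pathway genes called at 6 against 4 days numbered 7, and 4 to 9 with 1 library left out (4 without 4-day replicate 1). All genes called there numbered 1174, and 1837 with the compared groups alone, 2027 without both libraries apart in mitochondrial share, and, with 1 library left out, 572 to 1842: 1842 without control replicate 2, 572 and 685 without 4-day replicates 1 and 3, and 611 and 580 without 6-day replicates 1 and 2. The causes were not tested.

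With the longest transcript as gene length, the summed IGFBP level was 189 CPM per kb in controls and 660.3, 418 and 494 after 2, 4 and 6 days. In the same order the IGFBP3 share was 25.1%, 36.2%, 27.8% and 19.4%, the IGFBP4 share 36.3%, 34.4%, 29.97% and 45.2%, and the IGFBP7 share 28.6%, 21.8%, 34.8% and 31.2%. With library totals alone the summed level after 6 days was 426.

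Same-numbered libraries of different groups did not deviate together (correlations of -0.171 to 0.0963 over 18 pairs, with 3 of 12 libraries correlated best with their own number). This gave no sign that the numbers pair them, but groups of 3 libraries are too small to exclude a weak pairing. With the replicate block 6, 6, 7, 6, 3 and 7 members were called in the 6 comparisons, the same counts as without it, and the call of no member changed. Low counts limit what can be said of INSR, IGF1 and IGFBP1, and why they were low was not tested.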
